A study of Mus musculus with 47 samples.

Results

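The 10 genes described here handle lactate and pyruvate in B78-D14 mouse melanoma cells and in tumors grown from them. They are *Ldha*, *Ldhb*, *Slc16a1*, *Slc16a3*, *Mpc1*, *Mpc2*, *Pdha1*, *Pdk1*, *Pdk2* and *Pdp1*. All 10 were found among the 56748 genes of the count table. B78-D14 is an amelanotic derivative of the B16 melanoma line that lacks Cdkn2a, and every group here, controls included, shares that background. Its mitochondrial DNA was edited with a cytosine base editor to place a premature stop codon in *Mt-Nd5*, a subunit gene of respiratory complex I. Edited lines are named by the mitochondrial position and by heteroplasmy, the share of mitochondrial genomes that carry the edit. RNA was compared in untreated cultures of m.11,944 60% cells and of unedited control cells, with 4 cultures each. Fragments of untreated subcutaneous tumors came from 3 lines, with 7 tumors of m.12,436 60% cells, 7 of m.12,436 40% cells and 4 of controls. Per the study's methods, tumors grew in young adult male C57BL/6 mice until a size endpoint, and the cultures had medium rich in glucose, with uridine added. Each edited line is a population of one parental line, and the cultures and the tumors carried different edits. Nothing in the labels says whether the numbered cultures were grown independently, so p values in cells measure only the spread between these cultures.

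Pyruvate stands at the branch between fermentation and respiration. Lactate dehydrogenase interconverts pyruvate and lactate while recycling NADH, and its subunits are encoded by *Ldha* and *Ldhb*. Monocarboxylate transporters move lactate and pyruvate with a proton across the plasma membrane. *Slc16a1* encodes MCT1, which works in both directions, and *Slc16a3* encodes MCT4, known for lactate export from highly glycolytic cells. Pyruvate enters the mitochondrial matrix through a carrier made of the products of *Mpc1* and *Mpc2*. There the pyruvate dehydrogenase complex, whose E1 alpha subunit is encoded by *Pdha1*, converts it to acetyl-CoA. Kinases such as those encoded by *Pdk1* and *Pdk2* phosphorylate and switch off that complex, and the phosphatase encoded by *Pdp1* reverses this.

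Between 16475735 and 36173502 reads per library were counted on genes. No pair of libraries of a group agreed within sampling noise, and none was treated as a duplicate. Cultures 1 and 2 stood apart from cultures 3 and 4 in both groups, and among tumors m.12,436 40% tumor 2 stood farthest from the others of its group. Of 6 markers of the melanocyte lineage, *Mitf* had 194 to 727 counts in every library. *Tyr*, *Mlana*, *Sox10*, *Dct* and *Pmel* had at most 19 counts outside the control tumors, and within these reached 1, 24, 291, 798 and 267 counts, the last 4 of these values in control tumor 3. *Ptprc*, a marker of leukocytes, had 0 or 1 count in every culture and at least 1334 counts in every tumor. In bulk tumor RNA, fewer cells of a type and less RNA per cell cannot be told apart.

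Compared per length, as reads per kilobase of the canonical transcript scaled to library size (RPKM), the 10 genes covered a very wide range in control cells. *Ldha* had by far the highest level, at 1450 ± 575 RPKM (SD, n = 4). *Slc16a1* followed at 82.3 ± 2.87 RPKM, *Pdha1* at 47.3 ± 10.5 RPKM and *Pdk1* at 22.3 ± 4.92 RPKM. *Mpc2*, at 17.8 ± 2.39 RPKM, and *Mpc1*, at 17.4 ± 1.84 RPKM, were within each other's spread. *Ldhb*, at 10.7 ± 2.10 RPKM, and *Pdp1*, at 6.98 ± 1.59 RPKM, came next. *Pdk2* had 0.630 ± 0.336 RPKM and *Slc16a3* 0.124 ± 0.0803 RPKM, so that the MCT4 gene was the lowest of the 10 in culture. Per length, *Ldha* supplied between 97.9% and 99.6% of the sum of both lactate dehydrogenase genes in every library. The order of m.11,944 60% cells differed only in *Mpc1* and *Mpc2* changing places, which lies within their spread. In control tumors, *Ldha* at 817 ± 134 RPKM, *Slc16a1* at 48.7 ± 2.04 RPKM and *Pdha1* at 41.3 ± 2.20 RPKM again led. *Mpc2*, *Mpc1*, *Pdk1*, *Ldhb* and *Slc16a3* then lay between 14.7 and 10.3 RPKM, with neighbors inside each other's spread. *Pdp1*, at 8.07 RPKM, and *Pdk2*, at 2.81 RPKM, were lowest. With the merged exons of all transcripts as the length, the order of the lower genes changed.

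Copies of these genes limit some levels. A run of 756 identical bases, within 67% of the *Mpc1* mRNA, also lies at chr12:110824504-110825259 (GRCm39) in *Mpc1-ps*, which itself had 0.997 to 3.42 CPM. Runs of at least 100 bases found elsewhere in the genome cover 39.8% of the *Ldhb* mRNA and 20.5% of the *Ldha* mRNA, and 0% of *Slc16a1* and *Slc16a3*. Reads from such runs may be split between copies. The strand setting of the counting was not given in the sources used here. Exons of the antisense gene *Csnk1d* overlap 40.1% of the merged exons of *Slc16a3*, those of *Samd14* overlap 23.1% of *Pdk2*, and those of *Map3k15* overlap 13.4% of *Pdha1*. Whether reads of these antisense genes were counted on the 10 is therefore not known.

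**Figure D1:**
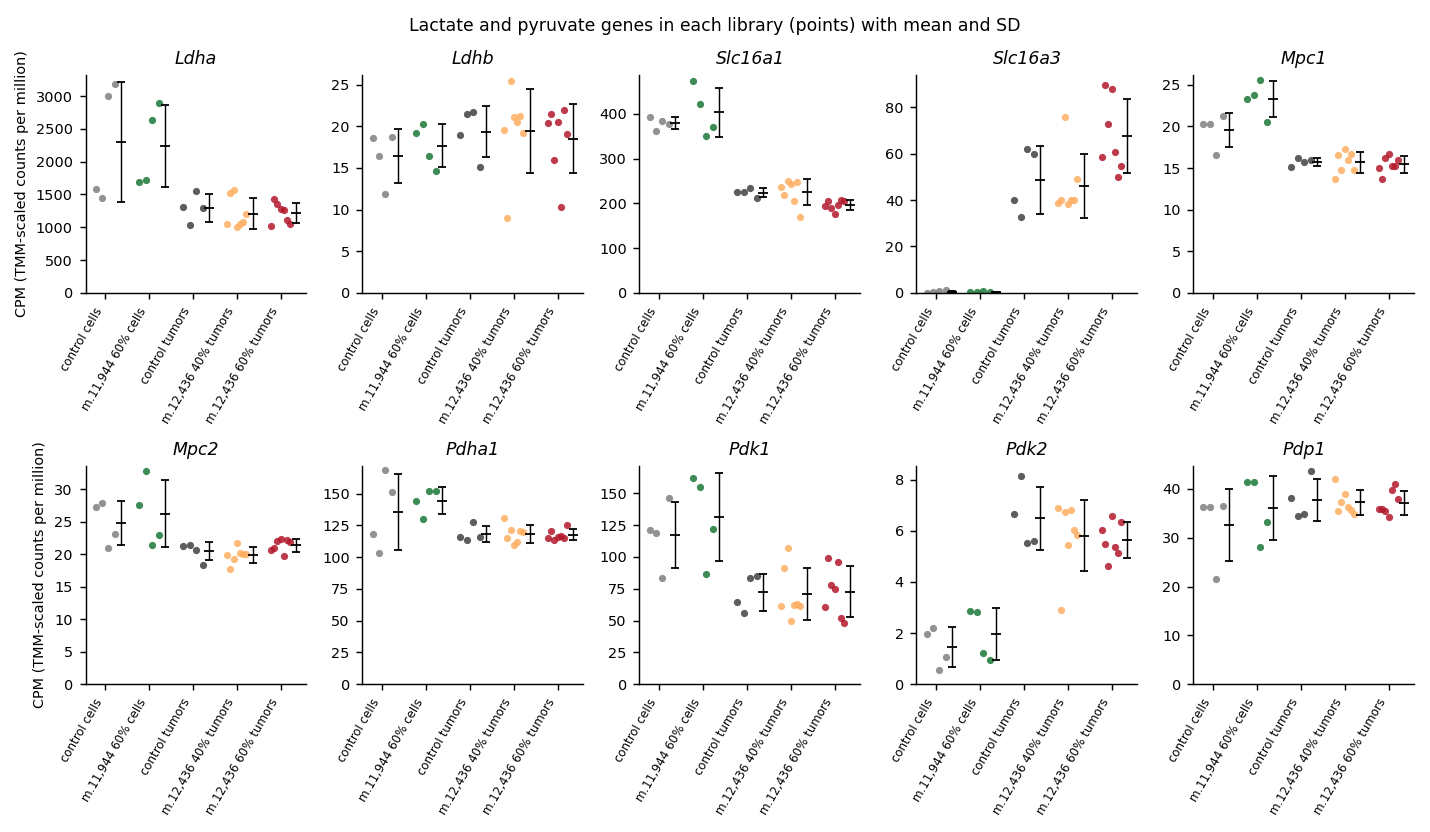
Scaled counts (CPM, scaled by TMM separately for cells and tumors) of each of the 10 genes on a linear axis from 0, with 1 point per library, and the mean and SD beside the points of each of the 5 groups. *Slc16a3* sits at or under 1.05 CPM in all cultures and at or above 32.6 CPM in all tumors, and *Ldha* in culture falls into a lower and a higher pair of libraries in both groups.

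The m.11,944 60% cells were compared with control cells to ask whether a truncated complex I subunit was accompanied by other levels of these transcripts in culture. None of the 10 genes was called. In this fit, which ignores the culture numbers, none reached an unadjusted p under 0.05, as 4.11% of all genes did. The median log2 fold change of the 10 was 0.10, with 8 above and 2 below 0, against a median of −0.0041 over all genes tested. A call means an adjusted p under 0.1 in edgeR's quasi-likelihood test, a rule that 5 of 12930 genes, or 0.0387%, passed in this comparison. limma-voom, which called 0.0387% of genes, and DESeq2, which called 0.65%, also called 0 of the 10. No gene of the 10 had groups that did not overlap, against 3.48% of all genes.

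For the lactate dehydrogenases, *Ldha* had 1582, 1448, 2996 and 3182 CPM in control cultures 1 to 4. In m.11,944 60% cultures 1 to 4 it had 1683, 1717, 2631 and 2898 CPM. Both groups had cultures 3 and 4 well above cultures 1 and 2, and the groups overlapped. The log2 fold change was −0.04, with a 95% interval from −0.77 to 0.68, or from 0.586-fold to 1.60-fold. *Ldhb* was at 18.6, 16.5, 11.9 and 18.8 CPM in control cultures and at 19.2, 20.3, 16.5 and 14.6 CPM in mutant cultures. These groups overlapped too, at a log2 fold change of 0.10 (95% interval −0.31 to 0.52).

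Of the transporters, *Slc16a1* had 393, 361, 383 and 378 CPM in control cultures, the tightest of the 10 genes. In mutant cultures it had 473, 422, 351 and 371 CPM, so that the first 2 lay above all controls and the third below all of them. The log2 fold change was 0.09 (95% interval −0.18 to 0.36). *Slc16a3* had only 4 to 31 counts per control culture and 9 to 16 per mutant culture. At this depth its log2 fold change of −0.47 had a 95% interval from −1.66 to 0.72.

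For the mitochondrial pyruvate carrier, *Mpc1* was at 20.3, 20.3, 16.6 and 21.2 CPM in control cultures. In mutant cultures it was at 23.3, 23.8, 25.6 and 20.5 CPM. Mutant cultures 1 to 3 lay above every control culture, and the fourth did not. Its log2 fold change of 0.25 (95% interval −0.04 to 0.54) had the smallest unadjusted p of the 10 genes, 0.0803 (edgeR, adjusted p = 1). *Mpc2* averaged 26.2 ± 5.15 CPM against 24.8 ± 3.33 CPM (SD, n = 4 each), with a log2 fold change of 0.08 (95% interval −0.30 to 0.47).

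For the pyruvate dehydrogenase complex, *Pdha1* averaged 145 ± 10.4 CPM in mutant and 135 ± 29.9 CPM in control cultures (SD, n = 4 each), with a log2 fold change of 0.09 (95% interval −0.28 to 0.47). The kinase gene *Pdk1* was at 121, 119, 83.1 and 146 CPM in control cultures and at 162, 155, 86.7 and 122 CPM in mutant cultures. That gave a log2 fold change of 0.16 (95% interval −0.37 to 0.69), with overlapping groups. *Pdk2* was low, at 0.569 to 2.22 CPM in control and 0.958 to 2.86 CPM in mutant cultures, and its log2 fold change of 0.44 had a 95% interval from −0.75 to 1.63. *Pdp1*, the phosphatase gene, was at 36.4, 36.2, 21.5 and 36.4 CPM in control and 41.3, 41.4, 28.1 and 33.3 CPM in mutant cultures. Control culture 3 was low for its group, and the log2 fold change was 0.14 (95% interval −0.33 to 0.62).

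The replicate number carried much of this spread. *Ldha* was higher in cultures 3 and 4 than in cultures 1 and 2 by 1.03 on the log2 scale in control cells and by 0.70 in mutant cells. *Pdk2* went the other way, with log2 ratios of −1.37 and −1.38 of cultures 3 and 4 to cultures 1 and 2. Blocked on the replicate number, edgeR called 919 of 12930 genes, or 7.11%, and still 0 of the 10 genes. With the block the log2 fold change of *Ldha* was 0.0031, with a standard error of 0.080 against 0.317 without it. *Mpc1* then had the smallest p of the 10, 0.0454 unadjusted (edgeR with the block, log2 fold change 0.25, adjusted p = 0.216). The intervals given above for the cultures do not use the block. Within cultures 1 and 2, an alternative chosen after seeing the data, edgeR called 6 of the 10 genes, all higher in m.11,944 60% cells, where 42.2% of all genes were called in either direction. These were *Slc16a1* (log2 fold change 0.25, adjusted p = 0.00484), *Mpc1* (0.21, 0.0552), *Pdha1* (0.31, 0.000337), *Pdk1* (0.40, 1.64e-06), *Pdk2* (0.44, 0.0927) and *Pdp1* (0.19, 0.0563). Cultures 1 and 2 were the most alike of all pairs in each group, so these p values measure only the small spread between them. The share of all genes called higher alone was not counted. Within cultures 3 and 4 edgeR called 0 of 13136 genes, or 0%, and *Slc16a1*, *Pdha1* and *Pdk1* had log2 fold changes of −0.07, −0.07 and −0.13. The difference between these pairs of cultures was not tested.

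**Figure D2:**
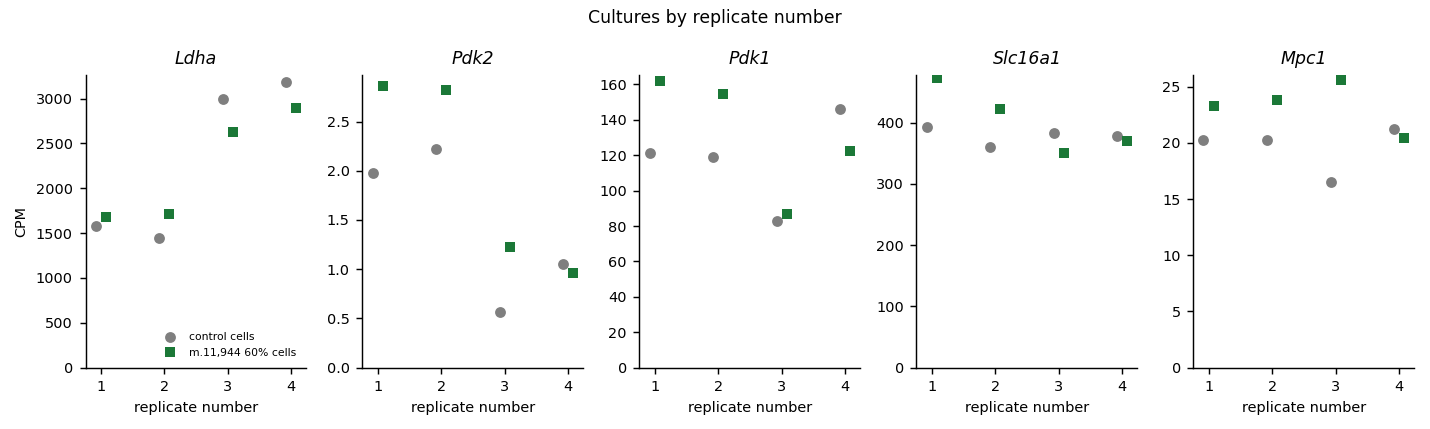
CPM of genes in the cultures, on a linear axis from 0, against the replicate number, with circles for control cells and squares for m.11,944 60% cells, 1 point per culture. *Ldha* is higher in cultures 3 and 4 than in cultures 1 and 2 of both groups, *Pdk2* is lower in them, and mutant *Pdk1* lies above control in cultures 1 and 2 but below it in culture 4.

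A wider list of 27 other genes for lactate and pyruvate metabolism was read beside the 10. Of these, 17 were tested in cells, and 0 were called by edgeR. The smallest p belonged to *Pdk4*, a further kinase of the pyruvate dehydrogenase complex known for its induction in fasting. *Pdk4* was at 12.9, 11.6, 8.13 and 7.09 CPM in m.11,944 60% cultures 1 to 4 and at 6.98, 6.65, 5.09 and 5.73 CPM in control cultures. Every mutant culture lay above every control culture. Its log2 fold change of 0.70 had an unadjusted p of 0.0138 and an adjusted p of 1 in edgeR's test. Blocking on the replicate number gave 0.67 with an adjusted p of 0.0318, a call. The block also called 1 other gene of the list, *Pcx*, which encodes pyruvate carboxylase and is named only after its values were seen, at 25.3 ± 4.88 against 17.3 ± 5.43 CPM (SD, n = 4 each, adjusted p = 0.0459). Of 10 other genes known as targets of HIF1, the transcription factor of the hypoxia response, 0 were called in cells without or with the block. *Slc2a1*, encoding the glucose transporter GLUT1, had the smallest p of them, 0.0456 unadjusted (edgeR, log2 fold change −0.41, adjusted p = 1).

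In tumors, none of the 10 genes was called by edgeR in any of the 3 comparisons. The mean of *Slc16a1* was lower and that of *Slc16a3* higher in m.12,436 60% tumors than in control tumors and in m.12,436 40% tumors, each with an unadjusted p under 0.05. That is 2 of 10 genes against 16.3% and 14.1% of all genes, a share close to the background. The other 8 genes had log2 fold changes between −0.20 and 0.11, and that of *Pdk2* in 60% against control tumors, −0.20, was as large in size as that of *Slc16a1*. Without control tumor 2 that of *Pdk2* was −0.064. With any single tumor left out, that of *Slc16a1* stayed between −0.20 and −0.16. These comparisons share samples: the control tumors stand in 2 of them, and so do the tumors of either heteroplasmy.

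*Slc16a1* had 225, 226, 234 and 212 CPM in control tumors 1 to 4. In the 7 m.12,436 60% tumors it ran from 176 to 209 CPM with a median of 197 CPM, and in the 7 m.12,436 40% tumors from 170 to 250 CPM with a median of 237 CPM. All 7 of the 60% tumors lay below all 4 controls, though the highest of them, at 209 CPM, was close to the lowest control, at 212 CPM, while the 40% tumors overlapped both groups. The log2 fold change against control was −0.19 (95% interval −0.36 to −0.02, unadjusted p = 0.0346, adjusted p = 0.265 in edgeR's test). Against 40% tumors it was also −0.19 (95% interval −0.34 to −0.04, unadjusted p = 0.0151, adjusted p = 0.222). Between 40% and control tumors it was 0.0013 (95% interval −0.17 to 0.17). Fitted on only the 60% and control tumors, the difference from control passed the threshold in edgeR (adjusted p = 0.0754), in a fit that called 5.97% of all genes. Without 40% tumor 7, the lowest of its group, the difference between heteroplasmies was −0.25 and passed (adjusted p = 0.0387).

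*Slc16a3* had 39.9, 32.6, 62.2 and 59.8 CPM in control tumors 1 to 4 and so varied widely among themselves. In m.12,436 60% tumors it ran from 50.02 to 89.6 CPM with a median of 60.5 CPM, and in m.12,436 40% tumors from 38.5 to 75.8 CPM with a median of 40.1 CPM. Only 3 of 7 of the 60% tumors exceeded every control tumor, and 2 of 7 exceeded every 40% tumor, so all groups overlapped. The log2 fold change was 0.48 against control (95% interval 0.0039 to 0.95, unadjusted p = 0.0484, adjusted p = 0.304) and 0.56 against 40% tumors (95% interval 0.16 to 0.96, unadjusted p = 0.00924, adjusted p = 0.184, both by edgeR). Between 40% and control tumors it was −0.08 (95% interval −0.55 to 0.39). The difference between heteroplasmies passed in DESeq2 (adjusted p = 0.0658), which called 4.59% of all genes there, and in edgeR without 40% tumor 3 (0.72, adjusted p = 0.0531), the highest of its group.

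The ratio of the transporter genes within a library put both differences together. Per length, the level of *Slc16a1* was a median of 4.81 times that of *Slc16a3* in control tumors, 5.60 times in 40% tumors and 3.32 times in 60% tumors. On the log2 scale the ratio was lower in 60% than in control tumors by 0.69 (exact two-sided permutation p = 0.0364) and lower than in 40% tumors by 0.75 (p = 0.00641, where 0.000583 is the smallest the design allows). After Benjamini-Hochberg adjustment over the 16 ratio comparisons made, these permutation p values were 0.291 and 0.103, above the threshold. This ratio was formed after the levels of both genes were known. Leaving out single tumors moved the difference from control between −0.83 and −0.51, with an exact p of 0.0571 without 60% tumor 2, 0.0667 without 60% tumor 3, 0.0833 without control tumor 1 and 0.1 without control tumor 2.

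**Figure D3:**
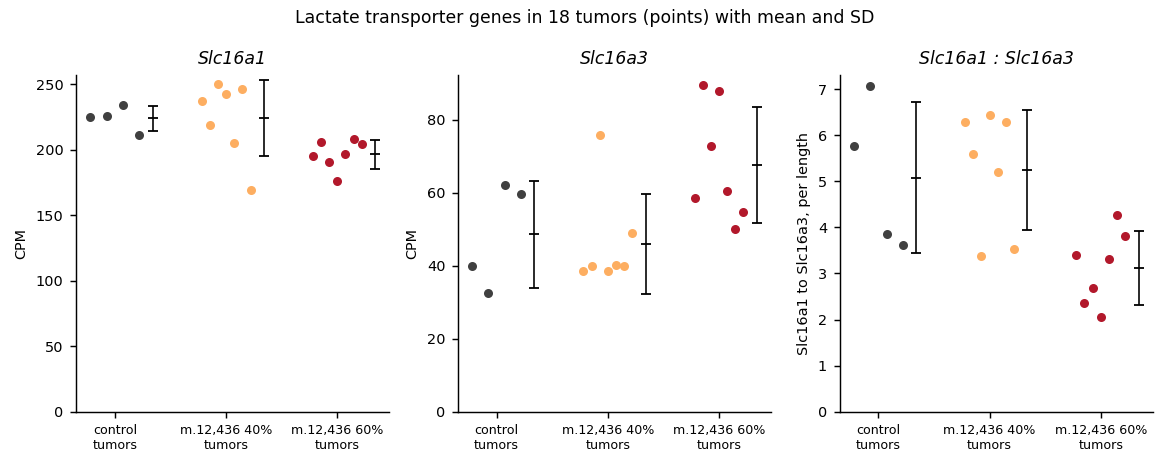
*Slc16a1* and *Slc16a3* in CPM and the ratio of their levels per length within a library, each on a linear axis from 0, for 4 control, 7 m.12,436 40% and 7 m.12,436 60% tumors, with 1 point per tumor and the mean and SD of each group beside the points. The 60% tumors lie below the controls for *Slc16a1*, with a median of 197 CPM, and reach from 50.02 to 89.6 CPM for *Slc16a3*, and 40% tumor 3 stands above its group for *Slc16a3* at 75.8 CPM.

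Markers of other cell types differed in the same comparisons. Of 13 leukocyte markers, 8 had higher and 5 lower means in 60% than in control tumors, with 3 at an unadjusted p under 0.05, and 10 had higher and 3 lower means in 60% than in 40% tumors, with 7 at an unadjusted p under 0.05. *Itgam*, which encodes CD11b and marks myeloid cells, was called higher in 60% tumors than in control tumors (log2 fold change 0.38, adjusted p = 0.0261) and than in 40% tumors (0.42, adjusted p = 0.00611), as the only 1 of the 13 called in each. Other myeloid markers of the list were not called. Against control, *Csf1r* had a log2 fold change of 0.32 (unadjusted p = 0.0104, adjusted p = 0.167 in edgeR's test) and *C1qa* of 0.20. *Adgre1* had 0.05, *Csf3r* −0.01, *Cd68* −0.07, *S100a8* −0.13 and *S100a9* −0.19. The summed level of these 13 markers ran from 752 to 1292 CPM in 60% tumors, from 784 to 972 CPM in 40% tumors and from 794 to 990 CPM in control tumors. Across the 18 tumors, with group means removed, *Slc16a3* and the leukocyte score had r = 0.43 (permutation p = 0.0769, adjusted p = 0.296) and rho = 0.267 (permutation p = 0.311), and without the 2 tumors farthest in score r = 0.34. Within the 7 tumors of a heteroplasmy this r was 0.486 at 60% and 0.786 at 40%. For *Slc16a1* and the leukocyte score r was −0.10 (permutation p = 0.707, adjusted p = 0.884) and rho 0.0010 (permutation p = 1), and r −0.015 without the same tumors. The 5 red cell markers all had lower means in 60% than in control tumors, with log2 fold changes from −1.54 to −1.28 and 5 of 5 at an unadjusted p under 0.05, though 0 were called. Their summed level ran from 15.95 to 83.65 CPM in 60% tumors, from 14.2 to 115 CPM in 40% tumors and from 24.9 to 149 CPM in control tumors. All 7 skeletal muscle markers had higher means in 40% than in control tumors, with a median log2 fold change of 0.750. All 7 had lower means in 60% than in 40% tumors, with a median of −0.755. In 60% against control tumors 2 were higher and 5 lower. In each of these comparisons 0 of the muscle markers had an unadjusted p under 0.05. *Slc16a3* and the muscle score had r = −0.343 (permutation p = 0.204, adjusted p = 0.567), with 0.182 within the 60% and −0.755 within the 40% tumors. Of 5 endothelial markers, 1 had a higher and 4 had lower means in 60% than in 40% tumors, with 2 at an unadjusted p under 0.05 and 0 called. The part of leukocytes, blood, muscle or vessels in the transporter differences was not tested.

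Counting all 10 genes, edgeR called 0 in 60% against control tumors, where 374 of 16213 genes, or 2.31%, were called, and 2 of the 10 had an unadjusted p under 0.05, against 16.3% of all genes. One of the 10, *Slc16a1*, had groups that did not overlap, against 4.07% of all genes. In 40% against control tumors edgeR called 0 of the 10 genes and 0% of all genes, with 0 of the 10 and 5.09% of all genes at an unadjusted p under 0.05, and 0 of the 10 and 0.45% of all genes with groups that did not overlap. In 60% against 40% tumors it called 0 of the 10 and 1.81% of all genes, with 2 of the 10 and 14.1% of all genes at an unadjusted p under 0.05, and 0 of the 10 and 0.623% of all genes with groups that did not overlap. limma-voom called 0 of the 10 in all 3 comparisons, where it called 2.52%, 0% and 1.95% of all genes. DESeq2 called 0 of the 10 in the first and the second, with 6.51% and 0.0308% of all genes, and *Slc16a3* between heteroplasmies. The median log2 fold change of the 10 was −0.02, −0.02 and −0.01 in these comparisons, against −0.0025, 0.0043 and −0.0036 over all genes.

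The lactate dehydrogenases were not called in any tumor comparison. *Ldha* had 1305, 1034, 1556 and 1293 CPM in control tumors, 999 to 1567 CPM with a median of 1074 CPM in 40% tumors and 1026 to 1432 CPM with a median of 1260 CPM in 60% tumors. Its log2 fold change was −0.09 for 60% against control tumors (95% interval −0.37 to 0.19) and −0.10 for 40% against control tumors (95% interval −0.39 to 0.18). *Ldhb* had 19.0, 21.5, 21.7 and 15.1 CPM in control tumors, with medians of 20.5 CPM in 40% and 20.4 CPM in 60% tumors. Each edited group held a tumor well below its others, at 9.02 CPM in 40% tumors and 10.3 CPM in 60% tumors. Its log2 fold change was −0.06 for 60% against control tumors (95% interval −0.51 to 0.39).

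The carrier genes and *Pdha1* varied little between tumors. *Mpc1* ran from 13.7 to 17.3 CPM and *Pdha1* from 109 to 131 CPM over all 18 tumors. For 60% against control tumors, the 95% intervals of the log2 fold change were −0.18 to 0.12 for *Mpc1* and −0.12 to 0.10 for *Pdha1*. *Mpc2* had medians of 20.96, 20.02 and 21.8 CPM in control, 40% and 60% tumors. Between heteroplasmies *Mpc2* had a log2 fold change of 0.11 (95% interval −0.01 to 0.22, unadjusted p = 0.0624, adjusted p = 0.386 in edgeR's test).

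The regulators of the complex varied more between tumors than between groups. *Pdk1* had 64.2, 55.5, 83.7 and 85.1 CPM in control tumors, 49.8 to 106.7 CPM in 40% tumors and 48.1 to 98.9 CPM in 60% tumors. Its log2 fold change for 60% against control tumors was 0.01 (95% interval −0.47 to 0.48). *Pdk2* had 6.65, 8.16, 5.53 and 5.60 CPM in control tumors, and 4 of 7 of the 60% tumors lay below all of them, at a log2 fold change of −0.20 (95% interval −0.57 to 0.17). *Pdp1* had medians of 36.4, 36.3 and 35.8 CPM in control, 40% and 60% tumors, and a 95% interval of −0.17 to 0.13 for 60% against control tumors.

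Of the wider list, 19 of 27 genes were tested in tumors. In 60% against control tumors 1 was called, *Pdk4*, and it was higher. *Pdk4* had 2.16, 2.73, 2.90 and 2.61 CPM in control tumors and ran from 3.32 to 5.79 CPM with a median of 4.37 CPM in 60% tumors. All 7 of the 60% tumors lay above all 4 controls, and the 40% tumors, from 2.32 to 4.90 CPM with a median of 2.81 CPM, overlapped both. The log2 fold change was 0.76 (adjusted p = 0.0720 in edgeR's test), from 48 to 128 counts per tumor. In 40% against control tumors 0 of the 19 were called, and *Pdp2*, a phosphatase gene of the complex, had the smallest p, 0.0936 unadjusted (edgeR, adjusted p = 0.924). Between heteroplasmies 0 of the 19 were called, with 2 at an unadjusted p under 0.05. The smallest p was that of *Emb*, encoding embigin, a chaperone of monocarboxylate transporters, at medians of 40.3 CPM in 60% and 49.0 CPM in 40% tumors (log2 fold change −0.29, unadjusted p = 0.00203, adjusted p = 0.104). Of the HIF1 targets, 0 of 10 were called in each of the 3 comparisons. Their means were higher in 60% than in 40% tumors for 10 of 10, with a median log2 fold change of 0.18, lower in 40% than in control tumors for 9 of 10, with a median of −0.11, and higher in 60% than in control tumors for 7 of 10, with a median of 0.024. Their part in the difference of *Slc16a3* between heteroplasmies was not tested. Their smallest unadjusted p values were 0.399 for *Ankrd37* in 60% against control tumors, 0.253 for *Adm* in 40% against control tumors and 0.114 for *Ankrd37* between heteroplasmies, all by edgeR.

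**Figure D4:**
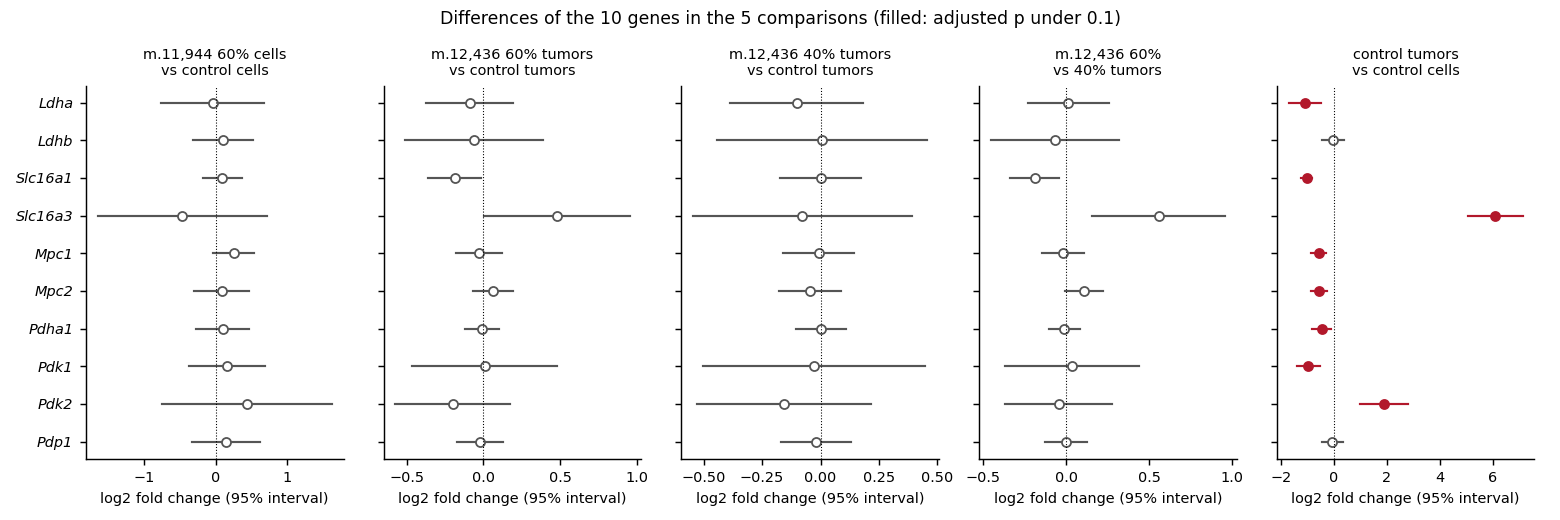
Log2 fold change (points) and 95% interval (lines) of the 10 genes in each of the 5 comparisons, first group minus second, with filled red points for an adjusted p under 0.1 in edgeR's test and open grey points otherwise. No gene is filled in the 4 comparisons of edited with other samples or of 60% with 40% tumors, and 8 are filled for control tumors against control cells, where *Slc16a3* lies at 6.09.

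Control tumors differed from control cells in most of the 10 genes. *Slc16a3* and *Pdk2* were higher and *Ldha*, *Slc16a1*, *Pdk1*, *Mpc1*, *Mpc2* and *Pdha1* were lower, while *Ldhb* and *Pdp1* were not called. This was a broad contrast, in which edgeR called 9806 of 15047 genes, or 65.2%, with 35.3% higher and 29.9% lower. The 8 of 10 genes called are to be read against that share. For 7 of the 10 the groups did not overlap, against 56.9% of all genes. The median log2 fold change of the 10 was −0.50, against 0.04 over all genes. A tumor holds host cells that a culture does not, and the *Ptprc* counts above differ accordingly. Tissue, medium and collection also differed, and their parts in these differences cannot be told apart.

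*Slc16a3* showed the widest difference. Scaled together, it had 0.161, 0.514, 0.715 and 1.13 CPM in control cultures and 36.2, 29.7, 55.6 and 54.1 CPM in control tumors, 68.3-fold higher by the fit (log2 fold change 6.09, 95% interval 5.06 to 7.13, adjusted p = 7.75e-06 in edgeR's test). The antisense gene *Csnk1d* had 231 to 248 CPM in control cultures, where *Slc16a3* was near 1 CPM or under, and 271 to 298 CPM in control tumors. *Slc16a1* went the other way, from 432, 393, 419 and 407 CPM in cultures to 204, 206, 209 and 192 CPM in tumors (log2 fold change −1.02, 95% interval −1.23 to −0.82, adjusted p = 1.99e-05). Per length, the median ratio of *Slc16a1* to *Slc16a3* was 669 in control cells and 4.81 in control tumors.

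*Pdk2* rose 3.73-fold from 2.17, 2.41, 0.622 and 1.13 CPM in cultures to 6.04, 7.44, 4.94 and 5.07 CPM in tumors (log2 fold change 1.90, 95% interval 1.00 to 2.80, adjusted p = 0.00272). *Pdk1* fell, from 133, 129, 90.8 and 157 CPM to 58.3, 50.6, 74.8 and 77.0 CPM (log2 fold change −0.97, 95% interval −1.41 to −0.53, adjusted p = 0.00215). Per length, the median ratio of *Pdk1* to *Pdk2* was 43.2 in control cells and 5.42 in control tumors. *Ldha* fell from 1739, 1573, 3276 and 3421 CPM to 1185, 942, 1391 and 1171 CPM (log2 fold change −1.09, 95% interval −1.71 to −0.48, adjusted p = 0.00727). All 4 tumors were below all 4 cultures. The remaining calls were smaller, with log2 fold changes of −0.58 for *Mpc1* (adjusted p = 0.00299), −0.54 for *Mpc2* (adjusted p = 0.00659) and −0.46 for *Pdha1* (adjusted p = 0.0280), the last with overlapping groups. *Ldhb* had a log2 fold change of −0.03 (95% interval −0.45 to 0.39) and *Pdp1* of −0.06 (95% interval −0.47 to 0.35).

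In the wider list 16 of 19 genes tested were called, 4 higher and 12 lower. *Slc16a7*, encoding the transporter MCT2, had 0 counts in all 8 cultures and 63 to 80 counts in control tumors. *Pcx*, for pyruvate carboxylase, fell by 2.25 on the log2 scale, *Me1*, for cytosolic malic enzyme, by 1.35, and *Pdhx* and *Dld*, subunits of the pyruvate dehydrogenase complex, by 1.19 and 1.07. Of the HIF1 targets 4 of 10 were called. *Car9*, *Ankrd37* and *Egln3* rose by 3.46, 2.04 and 0.89 on the log2 scale and *Pgk1*, for phosphoglycerate kinase, fell by 1.32.

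The levels of *Ldha*, *Pdk1* and *Slc16a3* varied together from tumor to tumor. HIF1 is known to bind ACGTG or GCGTG in promoters of genes of glycolysis and pH control, and these genes are commonly counted among its targets. A score was taken as the mean log2 CPM of the 10 HIF1 targets, none of them among the genes described, and group means were removed from genes and score, leaving the differences between the 18 tumors within their groups. *Ldha* had r = 0.869 with that score (permutation p = 3e-05, adjusted p = 0.0015 over 50 relations) and rho = 0.872 (permutation p = 2e-05). *Slc16a3* had r = 0.843 (permutation p = 0.00039, adjusted p = 0.0065) and rho = 0.831 (permutation p = 0.00025). *Pdk1* had r = 0.818 (permutation p = 0.00013, adjusted p = 0.00325) and rho = 0.823 (permutation p = 0.00019). Without control tumor 2 and 40% tumor 3, the tumors farthest from the median score, r was 0.806 for *Ldha*, 0.745 for *Slc16a3* and 0.767 for *Pdk1*. Within the 7 tumors of a heteroplasmy r was 0.962 at 60% and 0.781 at 40% for *Ldha*, 0.816 and 0.962 for *Slc16a3*, and 0.921 and 0.815 for *Pdk1*. The second lactate transporter gene did not share this, with r = −0.02 (permutation p = 0.943, adjusted p = 0.970) and rho = −0.07 (permutation p = 0.772) between *Slc16a1* and the score.

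**Figure D5:**
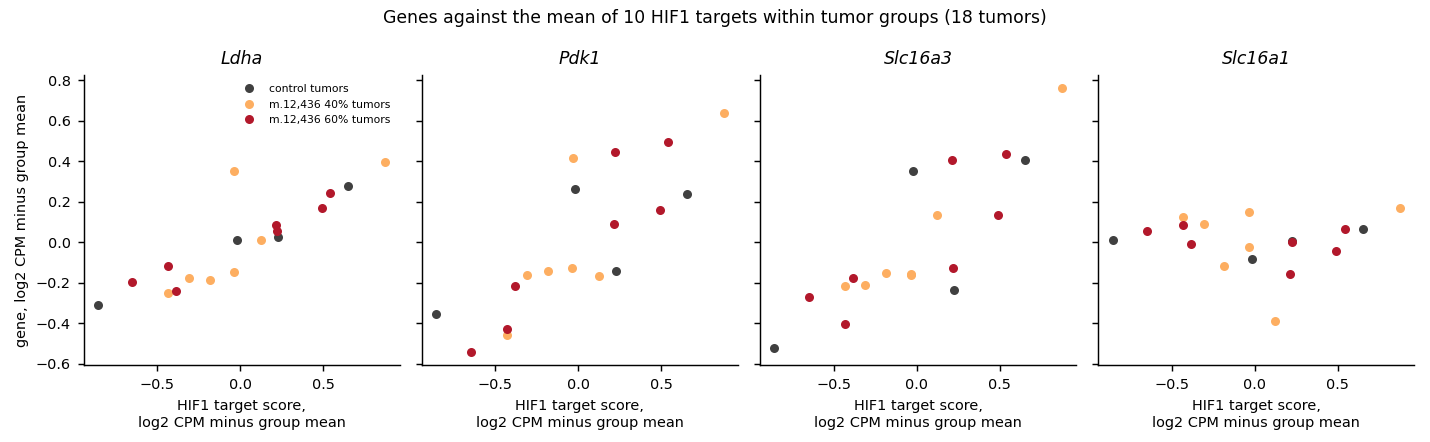
Log2 CPM of genes minus the group mean, against the mean log2 CPM of 10 HIF1 targets minus the group mean, with 1 point per tumor for 18 tumors, colored by group. Points for *Ldha* (r = 0.869), *Slc16a3* (r = 0.843) and *Pdk1* (r = 0.818) climb with the score, and those for *Slc16a1* (r = −0.02) do not.

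Among the 10 genes themselves, 4 of 45 pairs passed an adjusted p under 0.05. *Ldha* with *Pdk1* had r = 0.870 (permutation p = 8e-05, adjusted p = 0.0036, rho = 0.847 with permutation p = 6e-05), and r = 0.812 without 40% tumors 2 and 3. *Ldha* with *Slc16a3* had r = 0.747 (permutation p = 0.00098, adjusted p = 0.0192, rho = 0.730 with permutation p = 0.00096), and 0.823 without the same tumors. *Slc16a3* with *Pdk1* had r = 0.741 (permutation p = 0.00128, adjusted p = 0.0192, rho = 0.808 with permutation p = 0.00029), and 0.592 without 40% tumor 3 and 60% tumor 2. The pair *Mpc2* and *Pdk1* went in opposite directions, with r = −0.669 (permutation p = 0.00327, adjusted p = 0.0368), but its rho of −0.633 had an adjusted p of 0.0954. Of the 50 relations with scores, the only other one to pass was *Pdp1* with leukocytes, at r = −0.634 (permutation p = 0.00292, adjusted p = 0.0365) and −0.514 without 60% tumors 5 and 6, and its rho of −0.554 (permutation p = 0.0199) did not pass (adjusted p = 0.199). Removing group means uses the tumors' own groups, and library composition is shared by all genes of a tumor. The share of other genes with relations this strong, to the score or among themselves, was not counted. These relations are therefore not shown to be particular to the 10 genes.

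The promoters of the genes in this relation are shown with the HIF1 core motif, together with that of *Slc16a1*, which did not share it. They are RefSeq sequences of GRCm38.p6, from 250 bases before to 50 bases after the start, at chr7:46845554-46845853 for the first of 2 listed starts of *Ldha*, chr11:120948817-120949116 for *Slc16a3*, chr2:71872974-71873273 for the first of 2 starts of *Pdk1* and chr3:104638414-104638713 for *Slc16a1*, all on the + strand. Capitals mark ACGTG and GCGTG on either strand, read as CACGT and CACGC on the strand printed.
Ldha: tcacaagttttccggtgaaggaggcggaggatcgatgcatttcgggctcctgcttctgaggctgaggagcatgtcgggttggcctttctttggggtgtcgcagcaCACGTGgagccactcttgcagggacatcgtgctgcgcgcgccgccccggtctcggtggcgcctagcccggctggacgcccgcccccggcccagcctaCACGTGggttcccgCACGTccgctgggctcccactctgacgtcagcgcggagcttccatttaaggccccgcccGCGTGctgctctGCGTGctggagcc
Slc16a3: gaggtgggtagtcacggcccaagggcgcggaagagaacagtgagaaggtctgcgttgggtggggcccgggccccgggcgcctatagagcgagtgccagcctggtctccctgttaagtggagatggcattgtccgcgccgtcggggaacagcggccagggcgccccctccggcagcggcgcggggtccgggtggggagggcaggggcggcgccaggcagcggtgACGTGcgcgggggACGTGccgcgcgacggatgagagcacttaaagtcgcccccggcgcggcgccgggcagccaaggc
Pdk1: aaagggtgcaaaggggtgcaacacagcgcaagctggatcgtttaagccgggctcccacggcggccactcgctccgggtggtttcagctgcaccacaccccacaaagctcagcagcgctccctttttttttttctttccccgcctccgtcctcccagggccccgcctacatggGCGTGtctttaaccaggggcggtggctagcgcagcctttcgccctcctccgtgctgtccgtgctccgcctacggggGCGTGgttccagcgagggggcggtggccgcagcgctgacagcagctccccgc
Slc16a1: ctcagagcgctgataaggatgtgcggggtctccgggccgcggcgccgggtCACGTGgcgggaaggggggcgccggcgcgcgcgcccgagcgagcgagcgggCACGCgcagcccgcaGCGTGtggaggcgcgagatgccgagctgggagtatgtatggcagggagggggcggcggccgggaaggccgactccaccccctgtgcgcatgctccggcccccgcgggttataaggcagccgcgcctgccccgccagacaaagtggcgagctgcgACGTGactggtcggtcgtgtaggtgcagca
The *Ldha* window held 7 matches, where each palindrome CACGTG counts as 2 because it is read on both strands. Those of *Slc16a3* and *Pdk1* held 2 each, and that of *Slc16a1* held 5. The second listed starts, not printed, held 2 matches for *Ldha* and 0 for *Pdk1*. *Pdha1*, with r = 0.222 to the score (permutation p = 0.401, adjusted p = 0.626, rho = 0.338 with permutation p = 0.185, and r = 0.097 without the tumors farthest in score), held 4. The shorter motif is common, with at least 1 match in 43.8% of 32851 promoters of the same length, at least 2 in 20.6% and at least 4 in 3.86%, while CACGTG was in 7.15%. A match describes letters in the window and not a bound site, and both *Slc16a1* and *Pdha1*, without the relation, had more matches than *Slc16a3* and *Pdk1*, with it. Whether the number of matches goes with the relation was not tested.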

How the data were processed

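The authors used STAR and GRCm39 for alignment and featureCounts (no version in the labels) for counting, and deposited raw counts for 56748 genes in 47 columns. Of these, 26 columns were matched to samples and 21 were not used. m.11,944 60% cultures were matched through a heading in the study's source data, and control cultures by the extent of the numbering. The m.12,436 60% cells, m.11,944 tumors and other control tumors were not analysed here. Depth was 16475735 to 36173502 counts per library, and the sparsest of the 10 genes, *Slc16a3* in culture, had 4 to 31.

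The test used edgeR 4.0.16 in R 4.3.3 (TMM scaling, filterByExpr, robust quasi-likelihood fit), tested on simulated data. Cells, tumors, and controls of both kinds were fitted separately, each over all genes kept, and called at an adjusted p under 0.1 (Benjamini-Hochberg). All p values are two-sided. Ratios (0.5 added to counts) were compared by exact permutation, and relations, from log2 CPM with a prior count of 2, by 100000 permutations. Alternatives were limma-voom (limma 3.58.1), DESeq2 1.42.0 and its size factors, other filters, a threshold of 0.05, a replicate block, only the groups compared and leaving out each library. Within-pair fits of the cultures were added after seeing the data. Same-numbered cultures deviated together from their group means (r across genes 0.718 to 0.832 over 4 pairs), so the numbers pair the cultures, and the blocked result is given where it changed a call. Tumor numbers did not pair tumors. Gene positions on GRCm39 come from GENCODE, which listed 56017 of the genes, and promoters from RefSeq, which listed 9 of the 10 genes (not *Pdp1*). Named genes are the 10, plus, of 27 related genes and 10 HIF1 targets, those called (at most 5 per list with the smallest p) or else the one with the smallest p. Members and lists were chosen with earlier results of these data known.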

Additional observations from a re-analysis of the deposited data

Results flagged for a closer look

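Of 50 groups of libraries examined, 5 held a library farther from the rest than Dixon's 95% critical value, where chance gives about 1 in 20. *Slc16a3* in m.11,944 60% culture 3 was the highest of 4, at 0.614 CPM against 0.383 CPM for the next (gap over range 0.838, critical value 0.829), from at most 16 counts. *Pdp1* in control culture 3 was the lowest of 4, at 21.5 CPM against 36.2 CPM for the next (0.983), and leaving it out turned the log2 fold change of *Pdp1* in cells from 0.14 to −0.01. *Slc16a3* in m.12,436 40% tumor 3 was the highest of 7, at 75.8 CPM against 49.0 CPM for the next (0.719, critical value 0.568). *Ldhb* and *Pdk2* were both lowest in m.12,436 40% tumor 2, *Ldhb* at 9.02 CPM against 19.2 CPM for the next (0.623) and *Pdk2* at 2.91 CPM against 5.45 CPM (0.639). That tumor also differed most from the others of its group across all genes.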

How the results depend on the processing

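Of 867 log2 fold changes recomputed for the 10 genes under the alternatives, 765 kept their direction and their side of the threshold, 10 newly passed it, 0 lost a call and 92 changed sign, none of these 92 among calls. All 8 calls of control tumors against control cells held in every fit that tested them, and with at least 10 counts asked of every library *Slc16a3* was not tested. The cause of the changes below was not tested.

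Genes called in cells numbered 5, against 84 with DESeq2, 0 with at least 10 counts in every library, 919 with the replicate block, 5482 within cultures 1 and 2 (6 of the 10 genes) and 0 within cultures 3 and 4. In 60% against control tumors the count was 374, against 150 at a threshold of 0.05, 1056 with DESeq2, 178 with the replicate block and 943 with only the 2 groups (1 of the 10). In 40% against control tumors DESeq2 called 5 and edgeR 0. Between heteroplasmies 293 became 113 at 0.05, 744 with DESeq2 (1 of the 10) and 178 unfiltered. Same-numbered tumors shared only a number (mean r −0.156 to −0.0058). There the block left 0 of the 10 called between tumor groups and gave *Pdk4* in 60% against control tumors an adjusted p of 0.166. In cells the block changed no call among the 10.

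Signs changed as follows. In cells *Ldha* went to 0.0037 (limma-voom), 0.0031 (replicate block) and 0.17 (cultures 1 and 2), and cultures 3 and 4 gave *Slc16a1* −0.072, *Pdha1* −0.068 and *Pdk1* −0.13. In 60% against control tumors limma-voom gave *Pdk1* −0.022, no filter *Pdk1* −0.00014 and the stricter filter *Pdha1* 0.0024. In 40% against control tumors limma-voom gave *Ldhb* −0.037 and *Slc16a1* −0.0085, and the replicate block *Slc16a3* 0.066, *Pdha1* −0.0019 and *Pdk1* 0.066. Between heteroplasmies limma-voom gave *Pdp1* 0.00090 and the stricter filter *Pdp1* 0.0025. In control tumors against cells limma-voom gave *Ldhb* 0.0030 and the stricter filter *Ldhb* 0.091 and *Pdp1* 0.064.

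With 1 library left out at a time, genes called ran from 0 to 0 in cells, 66 (without control tumor 3) to 724 (without control tumor 4) in 60% against control tumors, 0 to 4 in 40% against control tumors and 108 (without 60% tumor 1) to 452 (without 40% tumor 4) between heteroplasmies, where 0 to 1 of the 10 were called. Log2 fold changes that crossed 0 ran, in cells, from −0.21 to 0.15 for *Ldha*, −0.024 to 0.18 for *Ldhb*, −0.046 to 0.16 for *Mpc2*, −0.016 to 0.22 for *Pdha1* and −0.011 to 0.24 for *Pdp1*. In 60% against control tumors they ran from −0.18 to 0.018 for *Ldha*, −0.15 to 0.041 for *Ldhb*, −0.022 to 0.036 for *Pdha1*, −0.092 to 0.11 for *Pdk1* and −0.056 to 0.065 for *Pdp1*. In 40% against control tumors they ran from −0.19 to 0.0051 for *Ldha*, −0.081 to 0.13 for *Ldhb*, −0.018 to 0.063 for *Slc16a1*, −0.23 to 0.075 for *Slc16a3*, −0.029 to 0.029 for *Mpc1*, −0.016 to 0.047 for *Pdha1*, −0.14 to 0.074 for *Pdk1* and −0.052 to 0.068 for *Pdp1*. Between heteroplasmies they ran from −0.029 to 0.087 for *Ldha*, −0.19 to 0.029 for *Ldhb*, −0.053 to 0.0084 for *Mpc1*, −0.029 to 0.0098 for *Pdha1*, −0.054 to 0.16 for *Pdk1* and −0.027 to 0.025 for *Pdp1*. In control tumors against cells they ran from −0.17 to 0.051 for *Ldhb*. Log2 ratios of *Ldha* to *Ldhb* ran from −0.34 to 0.19 in cells, −0.16 to 0.12 in 60% against control tumors, −0.31 to 0.042 in 40% against control tumors and −0.066 to 0.31 between heteroplasmies. Those of *Slc16a1* to *Slc16a3* ran from −0.095 to 0.82 in cells, −0.83 to −0.51 in 60% against control tumors and −0.083 to 0.24 in 40% against control tumors. Those of *Pdk1* to *Pdk2* ran from −0.060 to 0.33 in 60% against control tumors, −0.099 to 0.29 in 40% against control tumors and −0.049 to 0.27 between heteroplasmies. Those of *Mpc1* to *Mpc2* ran from −0.0090 to 0.087 in 40% against control tumors and −0.16 to −0.085 between heteroplasmies. With all tumors, this last difference had an exact permutation p of 0.0589 (adjusted p = 0.314). The exact p was 0.00874 without 40% tumor 1, 0.0402 without 40% tumor 7 and 0.0425 without 60% tumor 5.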
